A study of Mus musculus with 34 samples.

Results

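The genes described here are 10 genes of plasmacytoid dendritic cells (pDCs), led by Cox6a2, and they are 10 of 22180 genes measured on arrays of mouse spleen dendritic cells (DCs). They are Cox6a2, Siglech, Bst2, Ly6d, Ccr9, Pacsin1, Klk1, Spib, Lag3 and Ly6c2. Each was read from the probe set annotated to its symbol alone, and each had exactly 1 such probe set. The set was chosen by measured values: Cox6a2 had the highest difference between Mst1/2-KO and WT in CD8- DCs, and Bst2, Siglech and Ly6c2 were known to be higher there as well. For that reason every value of the 10 genes that involves CD8- DCs is given below as a description, with no test, while their values in CD8+ DCs, in total DCs and after anti-CD40 are tested.

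All mice were of strain C57BL/6, and the DCs were taken from spleen by fluorescence-activated sorting. Sorted CD8- and CD8+ DCs came from Mst1/2-KO and wild-type (WT) mice on 4 arrays per group, where Mst1 and Mst2 are kinases of the Hippo pathway. Total DCs were measured on 3 Mst1/2-KO arrays and 4 WT arrays. In experiment 1, DCs stimulated with an antibody against CD40, a receptor that activates DCs, came from mice labelled Rag1-KO p38-KO (3 arrays) and Rag1-KO (4 arrays). Rag1-KO mice lack mature T and B cells, and both groups of experiment 1 carry that deletion. Experiment 2 held 2 arrays of anti-CD40-stimulated Rag1-KO DCs, 1 array of stimulated WT DCs and 1 array of non-stimulated Rag1-KO DCs. The labels give no ages, no Cre driver or promoter for the deletions, and no statement that each array stands for its own animal. Each p-value below therefore measures only the spread between these arrays, which may be technical.

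Values are log2 signals as normalized by the authors, a difference of 1 being a doubling, and differences are given with the standard error (SE) of the limma fit. Array medians lay between 4.11 and 4.20. A gene is said to be called where its Benjamini-Hochberg adjusted p over all 22180 genes is under 0.05. Levels compare within an experiment label only, and the level of one gene is not set against that of another. Stk4, the gene of Mst1, was called lower in Mst1/2-KO than in WT DCs in all 3 preparations, at 7.55 against 8.32 in CD8- DCs, 7.47 against 8.33 in CD8+ DCs and 7.41 against 8.51 in total DCs. Stk3 (Mst2) and Rag1 were not analysed here, and Mapk14, the gene of p38 alpha, averaged 8.47 in Rag1-KO p38-KO and 8.24 in Rag1-KO arrays (adjusted p = 0.657, limma). The labels give neither the p38 gene meant nor the part deleted, so this value checks nothing. For the sort, all 14 measured CD8+ DC markers being called higher and 13 of 14 CD8- DC markers called lower in WT CD8+ than in WT CD8- DCs.

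Plasmacytoid DCs are a rare DC type known for making large amounts of type I interferon when the endosomal receptors TLR7 and TLR9 sense nucleic acids. Their identity depends on the transcription factor E2-2, encoded by Tcf4, which binds the E-box motif CANNTG. Among the 10 genes, Siglech encodes Siglec-H, a surface receptor that signals through the adaptor encoded by Tyrobp, and Bst2 encodes tetherin, a membrane protein that holds back budding viruses and marks mouse pDCs at rest. Spib encodes an ETS-family transcription factor of pDCs and B cells. Ccr9 encodes a chemokine receptor for homing to the gut, Lag3 an inhibitory receptor that binds MHC class II, and Pacsin1 an adaptor of membrane trafficking. Ly6c2 and Ly6d encode small lipid-anchored surface proteins, the first of them also known from monocytes. Cox6a2 encodes the heart and muscle form of a cytochrome c oxidase subunit, and Klk1 a tissue kallikrein, a secreted protease.

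Promoter sequence is shown for the 3 members, other than Cox6a2, whose means were highest relative to WT in Mst1/2-KO CD8- DCs and for which a promoter was at hand. Sequences are those of RefSeq (GRCm38.p6), 5′ to 3′ on the strand of the gene, and each holds the 250 bases before the gene start. Promoters of 7 of the 10 genes matched by symbol.

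Siglech, chr7:55767934-55768183, plus strand: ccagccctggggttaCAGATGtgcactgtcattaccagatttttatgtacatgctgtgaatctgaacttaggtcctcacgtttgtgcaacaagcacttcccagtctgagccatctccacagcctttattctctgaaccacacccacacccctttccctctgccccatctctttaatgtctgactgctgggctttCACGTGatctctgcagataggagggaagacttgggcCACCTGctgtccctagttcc

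Ly6c2, chr15:75111972-75112221, minus strand: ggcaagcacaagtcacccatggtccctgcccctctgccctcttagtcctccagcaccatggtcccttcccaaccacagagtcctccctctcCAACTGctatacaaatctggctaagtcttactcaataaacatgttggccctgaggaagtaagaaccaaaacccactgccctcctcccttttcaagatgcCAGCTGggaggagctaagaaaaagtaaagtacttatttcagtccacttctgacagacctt

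Bst2, chr8:71537473-71537722, minus strand: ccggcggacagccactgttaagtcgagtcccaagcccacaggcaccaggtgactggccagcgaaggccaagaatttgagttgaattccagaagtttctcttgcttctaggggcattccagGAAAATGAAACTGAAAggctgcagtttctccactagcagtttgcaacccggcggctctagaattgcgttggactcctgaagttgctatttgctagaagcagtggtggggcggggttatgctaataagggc

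For Siglech and Ly6c2 the capitals mark CANNTG, which reads the same on both strands. It stood 3 times before Siglech, 2 times before Ly6c2 (at both of its listed starts), Spib, Klk1 and Ccr9, 1 time before Bst2 and 0 times before Pacsin1. CANNTG is common, since 66.22% of the 32851 promoters of the table hold it within the same length. For Bst2 the capitals mark a pair of GAAA repeats with 2 bases between them, a core that interferon regulatory factors bind, searched on both strands. It has 2 overlapping matches there and 0 in the other 6 matched genes, and 2.98% of all promoters hold it. GAGGAA, a core bound by ETS factors of the Spib kind, was found before Ly6c2 alone of the 7, against 23.25% of all promoters. These matches describe the letters and do not show binding.

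In sorted CD8- DCs the 10 genes spread widely by genotype. Cox6a2 was 13.3-fold higher in Mst1/2-KO than in WT cells, Ly6c2 3.83-fold and Bst2 2.09-fold, while Ly6d, Pacsin1, Klk1 and Ccr9 differed by less than 0.25 on the log2 scale and Lag3 was 0.32 lower. For 3 of the 10 genes, all higher in Mst1/2-KO, no array of one genotype reached the range of the other, where 6.52% of all genes were higher without overlap and 12% did not overlap in either direction. The contrast served to choose the genes, so nothing is read from that count. The median difference was 0.37 over the 10 genes and 0.0016 over all genes.

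Cox6a2 had signals of 11.07, 10.67, 10.71 and 10.42 on the Mst1/2-KO CD8- arrays, against 7.45, 6.82, 6.52 and 7.16 on the WT CD8- arrays. The lowest Mst1/2-KO array thus lay almost 3 log2 units above the highest WT array. The means were 10.72 ± 0.27 in Mst1/2-KO and 6.99 ± 0.40 in WT cells (SD, n = 4 each), a difference of 3.73 ± 0.17. This was the most positive of all 22180 differences in this contrast.

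Ly6c2 had 11.48, 10.64, 12.05 and 11.51 in Mst1/2-KO CD8- cells, against 10.25, 8.82, 8.60 and 10.24 in WT CD8- cells. WT arrays 1 and 4 stood well above WT arrays 2 and 3, and the genotypes were separated by a small gap only. The difference of 1.94 ± 0.37 ranked 7 of all genes, counted from the most positive. Ly6c2 is nearly identical in sequence to its neighbour Ly6c1, so its signal could include that gene. The probe set of Ly6c1 itself stayed low, at 3.05 in Mst1/2-KO and 3.06 in WT CD8- DCs.

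Bst2 had 10.32, 9.81, 10.11 and 10.49 in Mst1/2-KO CD8- cells, against 9.29, 8.75, 9.23 and 9.22 in WT CD8- cells. Every Mst1/2-KO array was above every WT array, with a difference of 1.06 ± 0.16 (rank 72). Bst2 is induced by interferon, and of 22 other interferon-stimulated genes 1 was called higher (Oas3, 0.59 ± 0.17) and 1 lower (Rsad2, -0.66 ± 0.18), where 6.68% of all genes were called. None of the 16 measured type I interferon genes was called. A part of interferon in the Bst2 difference was not tested.

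Siglech had 8.68, 8.20, 9.08 and 9.24 in Mst1/2-KO CD8- cells, against 8.38, 7.79, 7.98 and 8.35 in WT CD8- cells. Mst1/2-KO array 2 fell within the WT range. The difference was 0.68 ± 0.19, and without that array the genotypes no longer overlapped. Tyrobp, the adaptor gene of the receptor, had 11.89 in Mst1/2-KO and 11.93 in WT cells.

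Spib had 8.21, 7.84, 8.21 and 8.66 in Mst1/2-KO CD8- cells, against 8.26, 7.17, 7.65 and 7.71 in WT CD8- cells. WT array 1 reached into the Mst1/2-KO range, and the difference was 0.53 ± 0.22. Lag3 was the member furthest in the opposite direction, with 7.47, 7.95, 7.27 and 7.95 in Mst1/2-KO against 8.05, 8.09, 7.75 and 8.02 in WT cells (difference -0.32 ± 0.19). For Lag3, 2 Mst1/2-KO arrays lay inside the WT range and 2 below it.

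The remaining members showed small differences with overlapping arrays. Klk1 differed by 0.21 ± 0.12, Ly6d by 0.12 ± 0.12, Pacsin1 by 0.08 ± 0.11 and Ccr9 by -0.09 ± 0.30. The wide error of Ccr9 came with a single WT array at 7.12, the other WT arrays being at 5.57 or below. The members varied together between arrays of a genotype, Mst1/2-KO array 2 being lowest for 6 members and WT array 1 highest for 7. With either of these arrays left out 5 members did not overlap, against 18.3% of all genes without Mst1/2-KO array 2 and 17.8% without WT array 1. These arrays were picked for their member values, so nothing is read from the higher count.

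**Figure D1:**
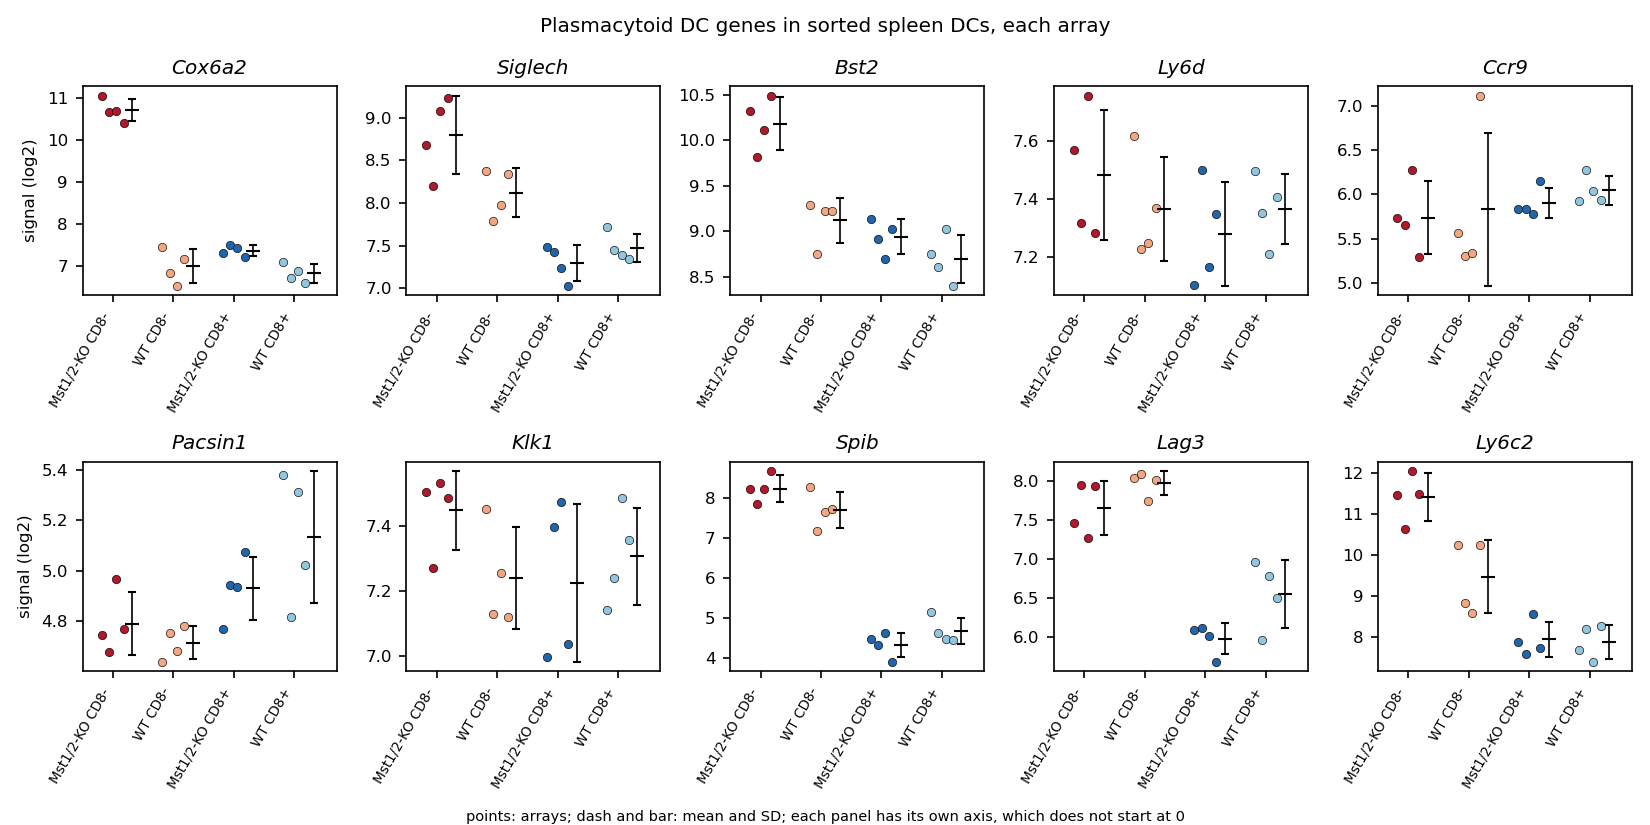
Log2 signal of each of the 10 genes (panels) on every array of sorted CD8- and CD8+ DCs, with Mst1/2-KO to the left of WT in each subset. Points are arrays, dash and bar are mean and SD (n = 4). Cox6a2 stands at 10.42 to 11.07 in Mst1/2-KO CD8- DCs and at 6.52 to 7.50 in the other 3 groups.

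In CD8+ DCs, whose genotype contrast is not among the values that chose the genes, although earlier results of these arrays were known, 0 of the 10 genes was called (limma, 0.888% of all genes called). Cox6a2 was again on the higher side, by 0.54 ± 0.17, which is 1.45-fold (adjusted p = 0.209). Its arrays had 7.30, 7.50, 7.42 and 7.21 in Mst1/2-KO CD8+ cells, against 7.10, 6.71, 6.89 and 6.58 in WT CD8+ cells, higher in 4 of 4 arrays without overlap. Cox6a2 was the only member without overlap here, where 6.33% of all genes had none. Under quantile normalization and cyclic loess its arrays overlapped.

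Lag3 was the other member with a small unadjusted p, 0.00739, in CD8+ DCs. It had 6.09, 6.12, 6.01 and 5.69 in Mst1/2-KO CD8+ cells, against 6.97, 5.97, 6.78 and 6.51 in WT CD8+ cells. WT array 2 lay below 3 of the Mst1/2-KO arrays. The difference was -0.58 ± 0.19 (adjusted p = 0.226), and without WT array 2 it was -0.78 and called (adjusted p = 0.0424, limma). WT array 2 is singled out after its value was seen and lay against the difference, so nothing is read from that call. The adjusted p of Lag3 ranged from 0.0424 to 0.483 over all settings.

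The other 8 members were within 0.35 of 0 in CD8+ DCs, with adjusted p between 0.563 and 0.982 (limma). Ly6c2, so different in CD8- cells, had 7.88, 7.60, 8.55 and 7.74 in Mst1/2-KO CD8+ cells, against 7.68, 8.20, 7.40 and 8.27 in WT CD8+ cells. Most of these arrays lay in the range shared by both genotypes, with a difference of 0.05 ± 0.37. Bst2 differed by 0.24 ± 0.16, Siglech by -0.18 ± 0.19 and Spib by -0.35 ± 0.22. Pacsin1 (-0.20 ± 0.11), Ccr9 (-0.14 ± 0.30), Ly6d (-0.09 ± 0.12) and Klk1 (-0.08 ± 0.12) complete the set, so that 3 of 10 members were above 0. The median difference was -0.12 over the members and 0.0046 over all genes.

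Set side by side, the genotype difference in CD8- minus that in CD8+ DCs was above 0 for all 10 genes, which is a description that includes the contrast used to choose them. It was 3.19 ± 0.24 for Cox6a2, 1.89 ± 0.52 for Ly6c2, 0.88 ± 0.31 for Spib, 0.86 ± 0.27 for Siglech and 0.82 ± 0.23 for Bst2. For the remaining members it lay between 0.05 (Ccr9) and 0.29 (Klk1).

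**Figure D2:**
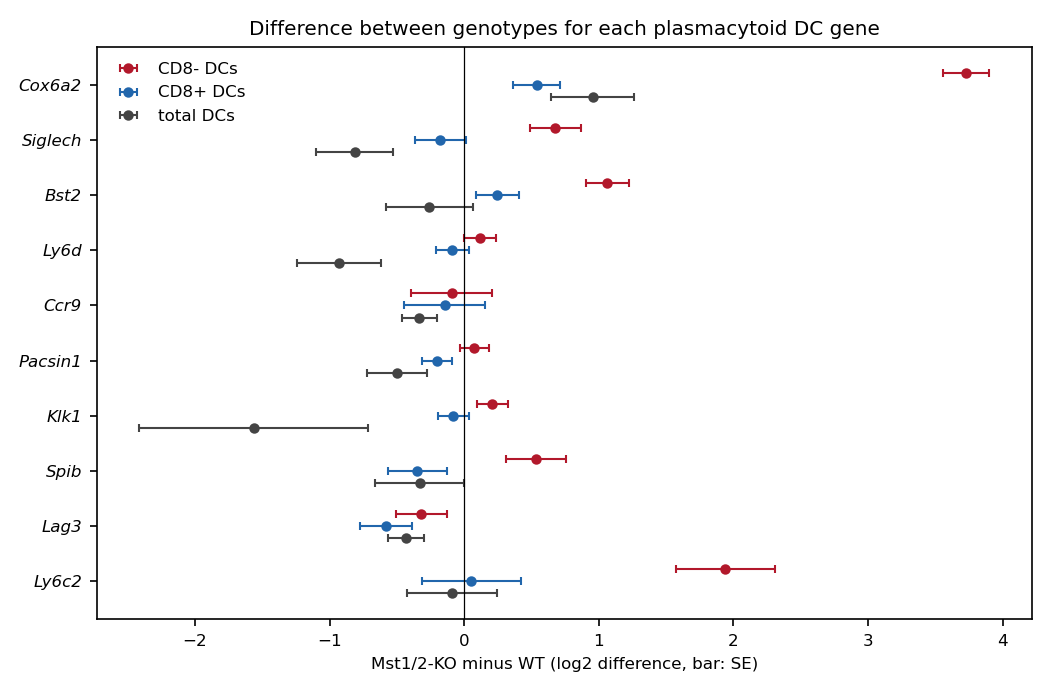
Difference between Mst1/2-KO and WT (log2, x axis) for the 10 genes (rows) in CD8- DCs, CD8+ DCs and total DCs, points with bars of 1 SE. Cox6a2 lies at 3.73, 0.54 and 0.95 in the 3 preparations, whereas Siglech lies at 0.68, -0.18 and -0.81.

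Between the subsets, the members also took different courses. In WT mice, Spib was 8.14-fold lower in CD8+ than in CD8- DCs, with 5.15, 4.63, 4.46 and 4.44 against 8.26, 7.17, 7.65 and 7.71. Ly6c2 was 3.01-fold and Lag3 2.68-fold lower in CD8+ DCs, and Siglech 1.57-fold, each without overlap. Pacsin1 was the member on the other side, 1.34-fold higher in CD8+ DCs (5.38, 4.82, 5.31 and 5.02 against 4.64, 4.75, 4.68 and 4.78). In all, 5 of 10 members did not overlap, where 22.4% of all genes did not, and nothing is read from that count because the WT CD8- arrays served to choose the genes.

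In WT cells Cox6a2 showed hardly any subset difference, with 6.82 ± 0.22 in CD8+ and 6.99 ± 0.40 in CD8- DCs (-0.17 ± 0.17). Ly6d (0.00 ± 0.12), Klk1 (0.07 ± 0.12), Ccr9 (0.21 ± 0.30) and Bst2 (-0.43 ± 0.16) overlapped between the WT subsets. In Mst1/2-KO mice Cox6a2 was 10.2-fold lower in CD8+ than in CD8- DCs. There Spib differed by -3.91 on the log2 scale, and Ly6c2 was 11.1-fold, Lag3 3.21-fold, Siglech 2.84-fold and Bst2 2.37-fold lower in CD8+ DCs. These 6 of 10 members did not overlap, against 21.9% of all genes.

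Other genes of the pDC programme, listed apart from the members, were tested in the same fits, and 26 of 28 were measured. In CD8- DCs 10 of the 26 rose in Mst1/2-KO cells and 3 fell, where 3.9% of all genes were called higher and 2.79% lower. The list was drawn up with Cox6a2, Bst2, Siglech and Ly6c2 known to be high on these same arrays, so it is not independent evidence of a direction. With only the CD8- arrays fitted 5 rose and 2 fell, and 5 rose without Mst1/2-KO array 3, WT array 2 or WT array 3. Tcf4, the gene of the pDC factor E2-2, was 2.11-fold higher, with 9.29, 9.07, 9.33 and 9.53 in Mst1/2-KO against 8.71, 7.98, 7.97 and 8.24 in WT cells (1.08 ± 0.15, adjusted p = 0.000228, limma). Every Mst1/2-KO array was above every WT array for Tcf4. Cd209d, a C-type lectin, rose by 1.25 ± 0.23 (adjusted p = 0.00244) and Upb1, an enzyme of pyrimidine breakdown, by 1.10 ± 0.21 (adjusted p = 0.00357).

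Tlr7, the receptor gene for single-stranded RNA, moved the other way. It had 9.38, 9.61, 9.34 and 8.65 in Mst1/2-KO CD8- cells, against 10.55, 10.15, 10.36 and 10.19 in WT CD8- cells (-1.07 ± 0.22, adjusted p = 0.00612, limma). All Mst1/2-KO arrays were lower than all WT arrays. The other called genes that fell were Lair1, an inhibitory collagen receptor (-0.56 ± 0.12), and Unc93b1, which encodes the chaperone of nucleic acid-sensing TLRs. Tlr9, the receptor for unmethylated DNA, and Irf7, the factor behind interferon transcription, were among the 13 genes not called. The median of the 26 was 0.18, with 16 above 0, against 0.0016 for all genes.

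Irf8, which CD8+ DCs and pDCs share, rose by 0.91 ± 0.23 (adjusted p = 0.0226), but its arrays overlapped and its adjusted p reached 0.108 when only the CD8- arrays were fitted. Lair1, Unc93b1, Tlr9, Irf7, Irf8 and Klra17 are named here after their values were seen. Klra17, a lectin-like receptor of pDCs, had the largest difference of the list, 1.49 ± 0.49, and was not called (adjusted p = 0.0838). A single WT array stood at 10.41 while the other 3 lay between 7.71 and 7.99, and without it Klra17 differed by 2.13 and was called (adjusted p = 0.00115, limma). That array is singled out after its value was seen and lay against the difference, so nothing is read from this call.

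In CD8+ DCs 0 of the 26 genes was called, and 12 were above 0. In a test of the difference between the subsets, 0.559% of all genes were called, among them Tcf4 (1.16 ± 0.21, adjusted p = 0.0126) and Tlr7 (-1.53 ± 0.31, adjusted p = 0.0317). The Tlr7 call was lost without any of 9 single arrays (adjusted p up to 0.0751), while Tcf4 was called in every setting run. In WT mice 13 of the 26 genes were lower and 3 higher in CD8+ than in CD8- DCs (14 and 3 with the replicate number as a block, which adds Upb1, adjusted p = 0.0282, limma), where 10% of all genes were lower and 11% higher. In Mst1/2-KO mice 17 were lower and 2 higher in CD8+ DCs, where 9.3% and 9.93% of all genes were. In WT mice Tlr7 was 29.1-fold and Cd209d 13.2-fold lower in CD8+ DCs, whereas Irf8 was 6.82-fold higher.

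**Figure D3:**
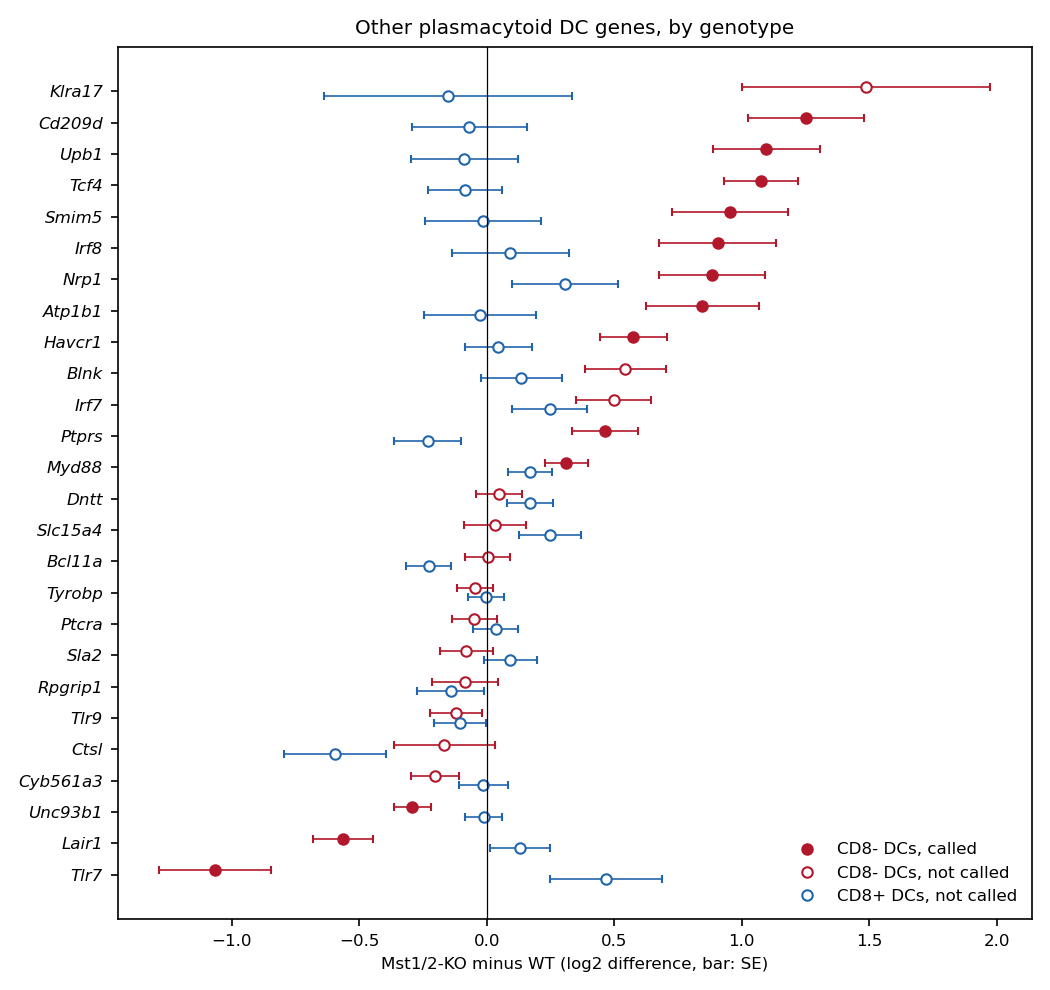
Difference between Mst1/2-KO and WT (log2, x axis, bars of 1 SE) for the 26 other pDC genes (rows) in CD8- and CD8+ DCs. Filled points passed the test over all genes, which 13 did in CD8- and 0 in CD8+ DCs.

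Relatives and neighbours of the members give a further setting for their values. Cox6a1, the widely expressed paralogue of Cox6a2, was 0.19 ± 0.06 higher in Mst1/2-KO CD8- DCs (11.33 against 11.15, adjusted p = 0.0903, limma). Of the 15 other cytochrome c oxidase subunit and related genes measured, 1 rose and 1 fell. Cox6b2, a subunit gene known from testis, rose (0.92 ± 0.19, adjusted p = 0.00626, limma). Cox7a2l, a relative of subunit genes, fell (-0.38 ± 0.08). None of the 18 other Ly6 family genes was called in CD8- DCs, and Ly6i, named after its value was seen, had 1.11 ± 0.36 (adjusted p = 0.0753). Of the 22 other kallikrein genes 0 were called. Among the 8 other Siglec family genes, Cd33 rose (1.24 ± 0.23), and Siglece (-1.10 ± 0.19), Siglecg (-0.49 ± 0.10) and Cd22 (-0.47 ± 0.10) fell.

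In the RefSeq gene order Itgad lies directly before Cox6a2 and Itgax before Itgad, both integrin genes, and Itgam belongs to the same cluster. Itgad, which encodes CD11d, rose in CD8- DCs, with 7.53, 7.40, 7.10 and 7.48 in Mst1/2-KO against 5.89, 5.85, 6.41 and 6.26 in WT cells (1.27 ± 0.18, adjusted p = 0.000385, limma). The difference was 0.77 ± 0.18 in CD8+ DCs (adjusted p = 0.0593) and 1.40 ± 0.22 in total DCs (adjusted p = 0.0207). In CD8+ DCs Itgad was called under 2 other settings and without 1 array, and in total DCs the call was lost without any of 5 single arrays (adjusted p up to 0.11). Itgam rose by 0.72 ± 0.14 in CD8- and 0.71 ± 0.14 in CD8+ DCs, and Itgax, the gene of CD11c, had -0.06 ± 0.07 and -0.03 ± 0.07. Lag3 lies between Cd4 and Ptms. In CD8- DCs Cd4 was 4.1-fold lower in Mst1/2-KO (8.44 against 10.48, adjusted p = 2.53e-05), and Ptms (-0.32 ± 0.08) and Gpr162 (-0.64 ± 0.10) fell as well.

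By the root-mean-square difference of the 4 sorted group means, each gene centred on its own mean, the genes most like Cox6a2 were Dab2 (0.50), Alox5 (0.66), Slamf9 (0.68), Pdlim1 (0.69) and Pi16 (0.71). Their differences in CD8- DCs ran from 1.80 (Slamf9) to 2.62 (Dab2), below that of Cox6a2. Predicted genes, with symbols of Gm and a number or ending in Rik, were left out of these rankings. Among the members Ly6c2 came closest to Cox6a2, at rank 7 of the genes kept (0.76), and Bst2 at rank 52 (1.06). Siglech was followed most closely by Ifitm5 (0.05), Cd209e (0.06), Fcgr1 (0.06), Zcwpw1 (0.07) and Pilrb2 (0.08), and Bst2 was the nearest member at rank 154. The 4 means that define this likeness include those of the CD8- contrast, so it is a description.

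Markers of other cells were examined in the same CD8- contrast, where 3.9% of all genes were called higher and 2.79% lower. Of the 14 measured CD8+ DC markers, 8 rose in Mst1/2-KO CD8- DCs and 1 fell, with Gcsam at 1.19 ± 0.17 and Ifi205 at 1.02 ± 0.15, and the list mean was 7.76 (7.47 to 7.97 over arrays) against 7.26 (7.01 to 7.53) in WT. Of the 14 CD8- DC markers, 4 rose and 6 fell. The B cell list, to which Spib is relevant, had 4 of 12 members lower, Cr2, Blk, Ms4a1 and Cd22, and 0 higher, with a mean of 5.65 (5.60 to 5.77) against 6.04 (5.93 to 6.15). The monocyte and macrophage list, to which Ly6c2 is relevant, had 2 of 18 higher (Cx3cr1 and Plac8) and 2 lower (Adgre1 and Apoe), with 7.81 (7.69 to 7.88) against 7.70 (7.55 to 7.86). Of 11 T cell markers 1 (Cd5) was lower, and 0 of 11 NK cell and 0 of 10 neutrophil markers were called. Of 4 sex-linked genes 0 were called. Xist had 6.94 in Mst1/2-KO and 6.91 in WT CD8- DCs, whereas the Y-linked genes were lower in Mst1/2-KO. Eif2s3y had 5.18 (4.35 to 5.58) against 5.99 (5.85 to 6.15), and Uty 4.49 (4.33 to 4.62) against 4.83 (4.66 to 5.02), both without overlap. Kdm5d had 4.27 (3.75 to 4.79) against 4.98 (4.79 to 5.29), with overlap. The part of any of these in the members' differences was not tested. In these sorted pools, fewer cells of a type and less RNA per cell cannot be told apart.

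In total DCs, 0 of the 10 genes was called between Mst1/2-KO and WT (limma, 0.848% of all genes called), and 9 of 10 lay below 0. Cox6a2 was the exception, with 8.81, 7.87 and 8.55 in Mst1/2-KO total DCs, against 8.25, 6.90, 7.32 and 7.35 in WT total DCs. WT array 1 lay inside the Mst1/2-KO range. The Cox6a2 difference was 0.95 ± 0.31, or 1.94-fold (adjusted p = 0.204, limma). On WT array 1 the T cell markers Cd3g (6.62, other WT arrays 2.76 to 3.56) and Cd3d (6.08, others 3.94 to 4.05) were high. Cd3e, Lat, Trat1, Lef1, Bcl11b, Themis and Cd28 were also highest of WT there. Cd5 (6.89) and Cd6 (4.54), the remaining measured markers of that list, were lowest of WT there. These markers are named after their values were seen, and their part in the members' values was not tested.

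Siglech had 8.07, 6.80 and 7.46 in Mst1/2-KO total DCs, against 8.72, 7.92, 8.38 and 8.0 in WT total DCs. Mst1/2-KO array 1 was inside the WT range and the other 2 below it, for a difference of -0.81 ± 0.28 (adjusted p = 0.243). With the replicate number as a block, a pairing that the arrays do not bear out, Siglech differed by -0.90 and was called (adjusted p = 0.0451). Ly6d had 7.49, 6.37 and 6.86 in Mst1/2-KO against 7.96, 7.20, 8.51 and 7.67 in WT total DCs (-0.93 ± 0.31, adjusted p = 0.227). Here too only Mst1/2-KO array 1 overlapped with WT.

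Lag3 had 6.92, 6.51 and 6.86 in Mst1/2-KO total DCs, against 7.0, 7.10, 7.37 and 7.31 in WT total DCs. It was the only member whose arrays did not overlap, where 13.8% of all genes had no overlap (-0.43 ± 0.13, adjusted p = 0.191). Lag3 was thus on the lower side in Mst1/2-KO DCs in all 3 preparations, and called in none of the tested ones. Klk1 varied most between arrays, with 8.30, 4.97 and 5.49 in Mst1/2-KO against 9.45, 6.57, 8.38 and 6.87 in WT total DCs (-1.56 ± 0.85, adjusted p = 0.489). That scatter of more than 3 log2 units within a genotype left its difference unresolved.

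Ccr9 (-0.33 ± 0.13), Pacsin1 (-0.50 ± 0.22), Spib (-0.33 ± 0.33), Bst2 (-0.26 ± 0.32) and Ly6c2 (-0.09 ± 0.34) had adjusted p between 0.317 and 0.949. Ly6c2 and Bst2, separated by genotype in sorted CD8- DCs, thus showed no separation here. The median over the 10 genes was -0.38, against 0.0028 over all genes.

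The members varied together between arrays of the same genotype in total DCs. Mst1/2-KO array 1 was highest of its group for 9 members and WT arrays 1 and 3 were each highest for 5, whereas WT array 2 was lowest for 7. Without Mst1/2-KO array 1, 6 members did not overlap between the genotypes, all lower in Mst1/2-KO, where 20.5% of all genes did not overlap. Without that array and WT arrays 1 and 3, a choice made after the data were seen, 7 did not overlap, where 40.1% of all genes did not, and 0 was called, with Cox6a2 at 1.08 and Siglech at -0.83. Leaving out arrays on which the members are high favours such counts, and nothing is read from them. Subset markers moved with genotype as well. The CD8+ DC marker list averaged 9.28 (9.25 to 9.34) in Mst1/2-KO and 8.89 (8.64 to 9.24) in WT total DCs, and the CD8- DC list 6.99 (6.78 to 7.17) against 7.41 (7.23 to 7.59). The part of these shifts in the members' values was not tested.

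**Figure D4:**
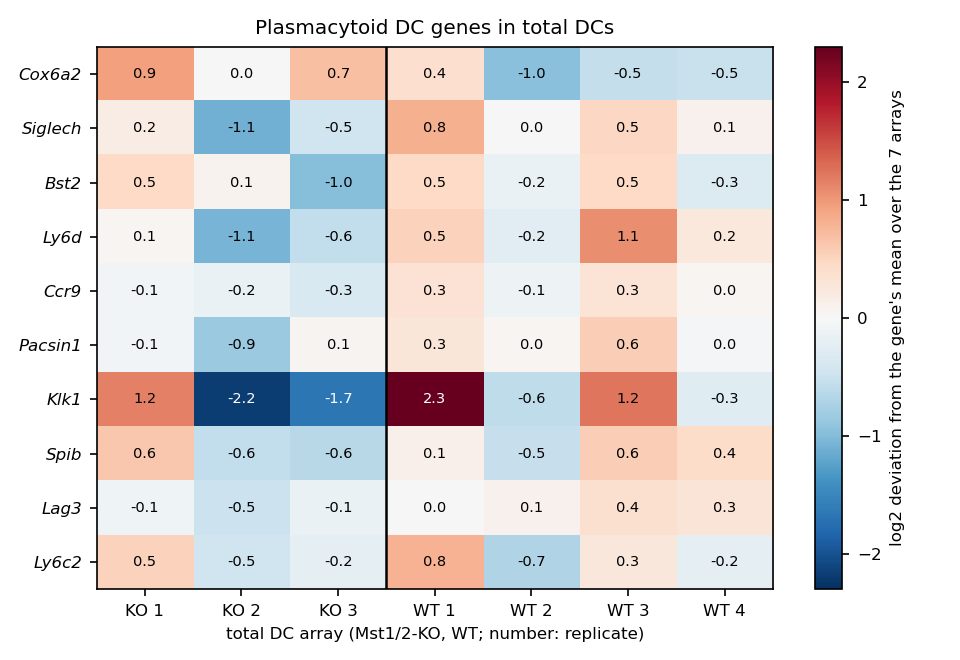
Deviation of each member (rows) on each total DC array (columns, Mst1/2-KO left of WT) from its mean over the 7 arrays, in log2, with red higher and blue lower. Mst1/2-KO array 1 and WT arrays 1 and 3 are red for most genes, and Klk1 spans -2.2 to 2.3.

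Of the 26 other pDC genes, 1 was called in total DCs, Tlr7, with 6.84, 6.15 and 7.43 in Mst1/2-KO against 8.34, 8.17, 8.80 and 8.68 in WT cells (-1.69 ± 0.27, adjusted p = 0.0219, limma). The arrays did not overlap, but the call was lost without any of 4 single arrays (adjusted p up to 0.104). Tcf4 had 0.23 ± 0.17 (adjusted p = 0.646). The Klk1 relatives Klk1b27 (-1.41 ± 0.45) and Klk1b22 (-1.60 ± 0.58) had differences of the same sign as Klk1, and 0 of 22 kallikrein genes was called. They are named after their values were seen, and their sequences are close to that of Klk1, so that their signals may be shared.

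After anti-CD40, 0 of the 10 genes was called between Rag1-KO p38-KO and Rag1-KO DCs of experiment 1. No gene of the 22180 was (0%), although 1866 had an unadjusted p under 0.05 (limma). Cox6a2 had 8.11, 9.29 and 8.38 in Rag1-KO p38-KO cells, against 7.64, 7.13, 7.56 and 7.68 in Rag1-KO cells. It was the only member without overlap, where 7.48% of all genes had none, and it was 2.13-fold higher (1.09 ± 0.29, unadjusted p = 0.00751, adjusted p = 0.47).

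Ly6c2 had 8.36, 9.02 and 8.44 in Rag1-KO p38-KO cells, against 8.92, 8.65, 10.65 and 10.25 in Rag1-KO cells (-1.01 ± 0.52, adjusted p = 0.607). Bst2 had 8.62, 9.45 and 8.83 against 8.87, 8.87, 10.17 and 9.85 (-0.48 ± 0.39, adjusted p = 0.714). For both genes Rag1-KO arrays 3 and 4 stood apart from arrays 1 and 2. Without arrays 3 and 4, left out after the data were seen, Ly6c2 differed by -0.18, Bst2 by 0.09 and Cox6a2 by 1.21, with 0 called.

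The other 7 members had differences between -0.51 (Spib) and 0.09 (Siglech), with adjusted p of 0.672 or more. Rag1-KO p38-KO array 2 was highest of its group for all 10 members and array 1 lowest for 9. Without array 2, singled out here after its values were seen, 7 members did not overlap, where 12.8% of all genes did not, Cox6a2 being higher and Siglech, Bst2, Ly6d, Ccr9, Spib and Ly6c2 lower in Rag1-KO p38-KO cells. Since that array was the highest for every member, nothing is read from the count. All 22 interferon-stimulated genes were below 0 (median -0.94, list mean 6.16, range 6.03 to 6.31, against 7.18, range 6.27 to 8.37), as were all 10 neutrophil markers (median -1.20, list mean 4.63, range 3.83 to 5.20, against 5.96, range 5.59 to 6.61). Irf7 had 7.24, 7.57 and 7.48 in Rag1-KO p38-KO cells, against 7.69, 7.80, 9.97 and 9.86 in Rag1-KO cells. The part of these in the members' values was not tested.

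Experiment 2, with a group of 2 arrays and 2 lone arrays, was not tested, and its values are given side by side. Cox6a2 had 8.90 and 7.50 in stimulated Rag1-KO DCs, 7.66 in stimulated WT DCs and 8.28 in non-stimulated Rag1-KO DCs. Siglech had 8.68 and 7.46, 7.58 and 8.35 in the same order, and Klk1 had 8.30 and 7.22, 6.46 and 7.62. For Cox6a2 and Siglech both lone arrays lay between the 2 stimulated Rag1-KO arrays, whereas for Klk1 the WT array lay below all others. Stimulated Rag1-KO array 1 was above array 3 for all members but Lag3 (6.89 and 7.03). Spib was lowest in the non-stimulated array, at 5.64, against 6.46 and 5.91 in stimulated Rag1-KO DCs and 6.37 in stimulated WT DCs.

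**Figure D5:**
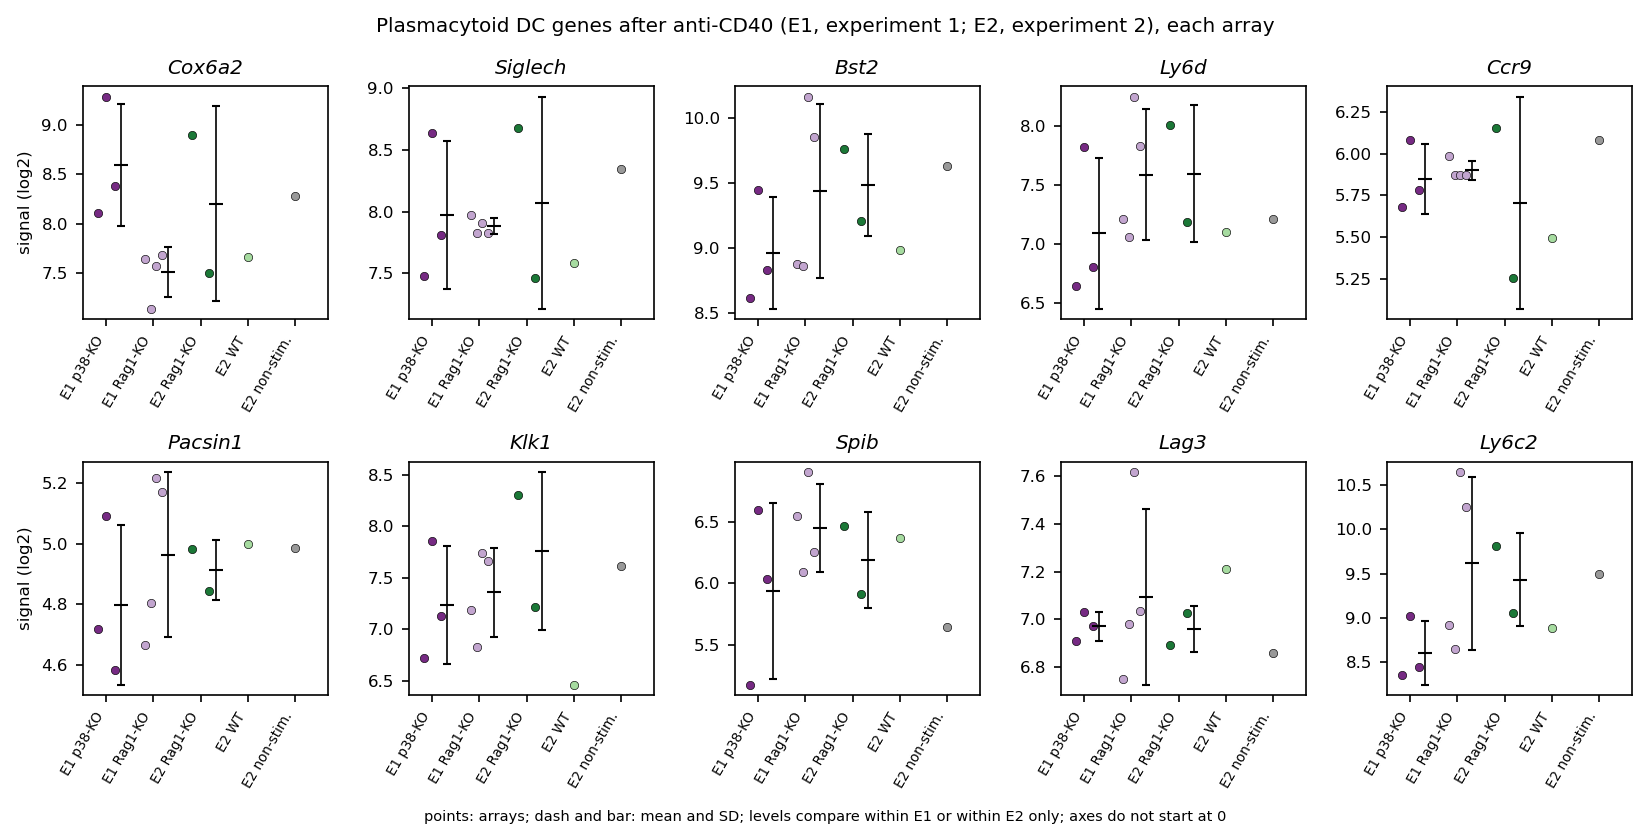
Log2 signal of each of the 10 genes (panels) on every array of experiment 1 (E1) and experiment 2 (E2), with Rag1-KO p38-KO left of Rag1-KO in E1. Points are arrays, dash and bar are mean and SD where a group has over 1 array. Cox6a2 has no overlap in E1 (8.11 to 9.29 against 7.13 to 7.68), and levels do not compare between E1 and E2.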

How the data were processed

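Expression was measured on 34 arrays of sorted mouse spleen DCs, on which 1 to 5 ng RNA is amplified, per the labels' protocols. The authors deposited log2 values, and the submitters' processing notes list RMA and Partek 6.6. Beyond the 5th decimal, 98.42% to 99.31% of the 41155 probe sets share their digits within an experiment label and 0.01% across labels, so the deposited log2 values carry a constant per probe set and label, and comparisons stay within a label. Of the probe sets, 23521 have exactly 1 gene (1814 several, 15820 none). The brightest of several stood for a gene, giving 22180 genes. Symbols come from the platform annotation. Neither genome build nor probe positions are stated in the sources.

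Each fit gave every group its own mean (limma 3.58.1, lmFit and eBayes, in R 4.3.3), and the code was tested on simulated data. The 16 sorted arrays shared 1 fit, and total DCs and experiment 1 had 7 arrays each. Members and lists were chosen with earlier results of these data known. Named are all members, up to 4 called genes per list and comparison by size, target genes, paralogues, neighbours and the 5 genes most like Cox6a2 or Siglech. Numbers counted as pairing arrays where every correlation of deviations was above 0.1. This held only between WT CD8+ and CD8- (0.126 to 0.337). Mst1/2-KO CD8+ and CD8- just missed it (0.0926 to 0.213), yet 4 of 4 arrays correlated best with their own number. In experiment 1, 3 of 3 Rag1-KO p38-KO arrays did so (0.0935 to 0.162). The other comparisons lie between -0.071 and 0.13. The main fits used no pairing, also where it may exist. No 2 arrays were duplicates (smallest SD between arrays of a group 0.187).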

Additional observations from a re-analysis of the deposited data

Results flagged for a closer look

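Among 132 groups of 4 arrays examined (the members and 12 other named genes), 5 had an array far from the other 3, and chance gives about 1 in 20. Bst2 was low on WT CD8- array 2, at 8.75, the next being 9.22. Ccr9 had 3 such arrays: WT CD8- array 4 at 7.12 (next 5.57), Mst1/2-KO CD8+ array 4 at 6.15 (next 5.84) and Rag1-KO array 1 of experiment 1 at 5.99, where the other 3 arrays carried the same value, 5.87. Klra17 stood at 10.41 on WT CD8- array 4 (next 7.99), the array on which Ccr9 was also high. Of the NK cell markers, Gzma (8.68, others 4.48 to 5.12) and Nkg7 (8.07, others 6.57 to 7.27) were highest of WT CD8- on that array. Klrb1b was highest on array 1 and Tbx21 on array 3. The T cell marker Cd3g had 6.25 on array 4 (others 4.44 to 5.59), and Cd3d, Cd3e, Trat1, Lef1 and Bcl11b were also highest there. Of the other measured T cell markers, Cd6, Lat, Themis and Cd28 were highest on array 2 and Cd5 on array 1. Cd6 and Themis were lowest on array 4. These markers are named after their values were seen. A difference between the subsets in the genotype effect was found for Tcf4 (1.16, adjusted p = 0.0126) and Tlr7 (-1.53, adjusted p = 0.0317) by limma's test of that difference. No explanation was tested.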

How the results depend on the processing

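Of 480 values of member differences under other settings, 479 kept their call or stayed within the SD between arrays. With 1 array left out, 619 of 620 did so. The exceptions are Siglech in total DCs under the replicate block and Lag3 in CD8+ DCs without WT array 2. In the untested comparisons, leaving out 1 array cannot move a group mean by as much as the SD of that group. In the tested comparisons no member was called with all arrays, so keeping the call meant staying uncalled. The left-out count could therefore hardly fail, and nothing about robustness is read from either count. No called value changed sign. The replicate block, in the one comparison that counted as paired, added Upb1 to the genes called lower in WT CD8+ than in WT CD8- DCs (-0.56, adjusted p = 0.0282, limma).

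In CD8+ DCs 197 genes were called, 123 with only the arrays compared and 114 to 209 with 1 array left out. Members without overlap were 1, but 0 under quantile normalization and under cyclic loess, and 1 to 2 with 1 array left out, when 0 to 1 members were called. For total DCs 188 genes were called, 296 among genes above the median, 340 with an intensity trend and robust prior, 108 with the replicate block, 39 to 169 with 1 array left out and 31 without the 3 arrays named above. The replicate block called 1 member there. Members without overlap were 2 under quantile normalization and cyclic loess, 7 without the 3 arrays and 1 to 6 with 1 array left out. In experiment 1 they were 1 to 7 with 1 array left out.

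In CD8- DCs, leaving out 1 array gave 918 to 1533 called genes (1482 with all) and 3 to 5 members without overlap. For the difference between subsets 124 genes were called, 211 with the replicate block and 79 to 259 with 1 array left out, and 2 members differed by 1 or more (2 to 4). Of the other pDC genes in CD8- DCs, 10 were called higher, 5 with only the CD8- arrays fitted. Elsewhere the block ended or made no call of a member. The cause of these shifts was not tested. The number of arrays limits the precision.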
